A study of Drosophila melanogaster with 6 samples.

Results

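Translation initiation factors (eIFs) bring the ribosome, the initiator tRNA and the capped mRNA together, and aminoacyl-tRNA synthetases load each tRNA with its amino acid. Their genes were picked by a rule on symbols that uses no measured value, but the rule was set with earlier results of these data known. Gene symbols starting with eIF and a digit gave 40 initiation factors, and symbols made of 1 or 2 three-letter amino acid names followed by RS, with or without the ending -m, gave 30 synthetases. These 70 genes are among 11981 genes named on the array, and where a gene had several probe sets the one with the highest mean log2 signal over the 6 arrays was used. Of the 30 synthetases, 16 are the cytosolic enzymes and 14, with the ending -m, serve the mitochondrial ribosome.

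The flies were w1118 females, sampled as whole bodies. All were moved to their food 3 to 5 days into adult life, kept on it for 1 week in normoxia and frozen at 10 to 12 days of age. The control group ate the regular diet (RD, Jazz-Mix food), and the other group a high-fat diet (HFD) with coconut oil at 20% weight per volume. There were 3 Affymetrix arrays per diet, and the labels do not say whether the 3 came from separate vials or how many flies each held. The p-values therefore speak of the scatter among these arrays, which may be technical.

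Initiation proceeds by defined steps. The factor eIF2 carries the initiator tRNA, eIF2B recharges eIF2 with GTP, the many-subunit eIF3 holds the small ribosomal subunit, and the cap is bound by eIF4E, which joins the scaffold eIF4G and the RNA helicase eIF4A. In flies as in mammals, cells slow this machinery through eIF2 kinases and through 4E-binding proteins when nutrients are short. In adult females the ovary, which loads eggs with mRNA and ribosomes, is a main user of it.

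After a week on added fat both families lay close to their RD levels. All 64 genes tested had a log2 fold change between -0.36 and 0.35 (the HFD mean of log2(signal + 1) less that of RD). Of 34 initiation factor genes tested, 7 passed an adjusted p of 0.05 (limma), which is 20.6%, against 19.5% of all 11261 probe sets tested (2196). Among them eIF2D, eIF2A and eIF3b rose, and eIF4B, eIF1 and eIF4G1 fell. The last of the 7, eIF4EHP, was lower on its brighter probe set and higher on its other one. Of 30 synthetase genes, all of which were tested, 1 passed, which is 3.33%: the asparagine enzyme AsnRS rose. By direction, 12.9% of all tested probe sets were called higher and 6.63% lower, and the initiation factors stood at 8.82% and 11.8%. The share of initiation factors called was thus near the background, and that of the synthetases below it; whether the families differ from other genes was not tested. The diets did not overlap for 16 of the 34 initiation factors and 10 of the 30 synthetases, against 42.0% of all tested probe sets. An unadjusted p under 0.05 was found for 12 initiation factors and 7 synthetases, against 35.5% of all tested probe sets (21.0% higher, 14.6% lower).

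**Figure D1:**
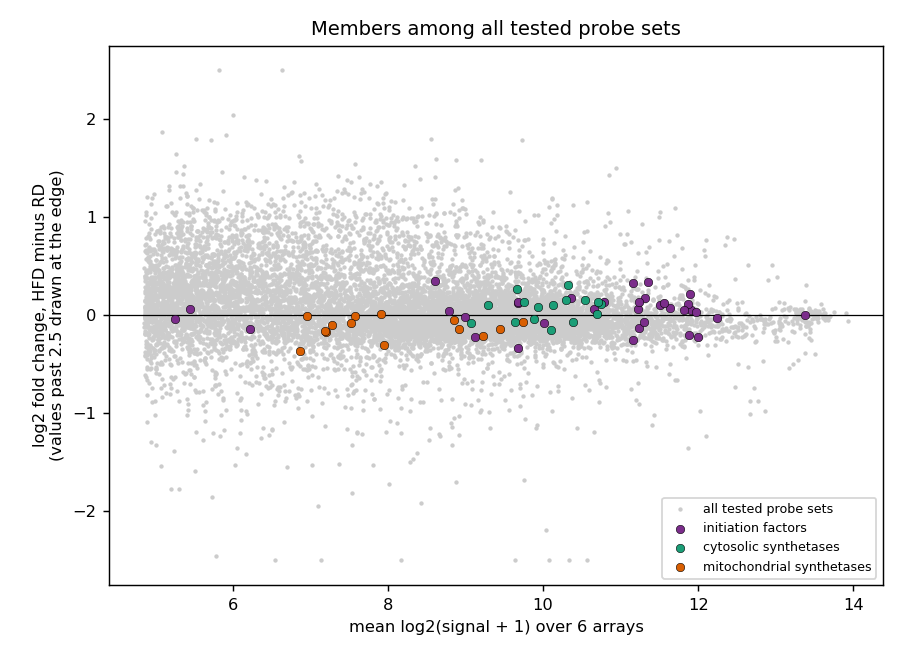
Log2 fold change (HFD minus RD, vertical axis) against mean log2(signal + 1) over the 6 arrays (horizontal axis) for all tested probe sets in grey and for the tested initiation factors, cytosolic synthetases and mitochondrial synthetases in colour. The coloured points lie between -0.36 and 0.35, while grey points reach the drawn limits.

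The sizes were small on the deposited scale. The intervals below reflect only the scatter among arrays and leave out doubt about the scale. Of the initiation factors, 20 of 34 had an estimate within 10% of the RD level, and of the synthetases 19 of 30, compared with 42.5% of all tested probe sets; most members are brighter than the typical probe set, and dim probe sets scattered more. The 95% interval of the fold change lay within 1.5-fold in either direction for all 34 initiation factors and for 28 of the 30 synthetases, compared with 68.1% of all tested probe sets. The exceptions were GluRS-m and ValRS-m. The median log2 fold change was 0.054 for the initiation factors and -0.048 for the synthetases, beside 0.008 for all tested probe sets.

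The scale of the arrays bears on every direction given here. Calls over all probe sets were 66% higher and 34% lower. They were 52% and 48% after quantile normalization. With every array set to the same median they were 19.5% and 80.5%, and the median fold change of all tested probe sets went from 0.008 to -0.200. After median centring 10 initiation factors and 14 synthetases were called lower and none higher, against 35.7% of all tested probe sets lower and 8.63% higher. Relative to the median of all probe sets, the median was 0.05 for the initiation factors and -0.06 for the synthetases, values that median centring cannot alter. With quantile normalization they were 0.11 and -0.03.

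The start-site factors are the proteins that find the first codon. Of 4 genes tested, eIF1, which keeps the scanning ribosome from starting at the wrong codon, was the 1 called. Over all tested probe sets 19.5% were called. The signal of eIF1 was 4199, 4789 and 4311 on RD arrays 1 to 3 and 3731, 3756 and 3893 on the HFD arrays. All HFD signals lay below all RD signals, and eIF1 fell by 0.22 ± 0.0574 (SE) on the log2 scale (limma, adjusted p = 0.0317). The GTPase-activating factor eIF5, at -0.07, the tRNA-carrier subunit eIF2beta, at 0.05, and the subunit-joining GTPase eIF5B, at 0.18, did not pass. For eIF5B the RD signals ran from 1002.5 to 1426.6 and spanned 2 of the 3 HFD signals, which were 1331, 1376 and 1509. No probe set was named for eIF1A, eIF2alpha or eIF2gamma alone, so the main carrier of the initiator tRNA was seen through eIF2beta only.

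The 5 subunits of eIF2B, the exchange factor that is held back when eIF2 is phosphorylated under stress, gave no call (limma). Over all tested probe sets 19.5% were called. An unadjusted p under 0.05 was found for 1 subunit, against 35.5% of all tested probe sets. That was the regulatory subunit eIF2Bbeta, with signals of 561, 648 and 601 in RD and 489, 527 and 535 in HFD. The diets did not overlap, and the estimate was -0.22 ± 0.0759 with an adjusted p of 0.0788. The subunits eIF2Balpha, eIF2Bdelta, eIF2Bepsilon and eIF2Bgamma were at 0.04, 0.12, 0.14 and -0.02.

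Both factors that can place a tRNA on the ribosome without the usual eIF2 complex were higher. The signal of eIF2A was 2590, 2062 and 2334 in RD and 2858, 2857 and 3076 in HFD, and it rose by 0.34 ± 0.0823 on the log2 scale (adjusted p = 0.0260). The gene eIF2D, whose product in flies aids translation of the stress factor ATF4, had signals of 379, 321 and 337 in RD and 434, 419 and 470 in HFD. The diets did not overlap for either gene, and eIF2D rose by 0.35 ± 0.0875 (adjusted p = 0.0279). RD array 1 was the RD array nearest to HFD for both. With median centring neither passed, and the lowest estimates over the alternatives were 0.13 for eIF2A and 0.14 for eIF2D. The remaining gene placed with them, eIF6, which keeps large ribosomal subunits from joining too early, was at -0.08 (adjusted p = 0.376).

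The eIF3 complex had 15 genes tested, of which 1 rose and none fell, against 12.9% and 6.63% of all tested probe sets. An unadjusted p under 0.05 was found for 5 (4 above RD, 1 below), a share near the 35.5% of all tested probe sets. The gene that rose was eIF3b, a core scaffold subunit. Its signal was 3831.8, 3281.2 and 3440.5 in RD and 4056.5, 4095.3 and 4147.1 in HFD, an increase of 0.22 ± 0.0608 (adjusted p = 0.0377). Of the subunit genes that did not pass, eIF3a was at 0.33 ± 0.108 (adjusted p = 0.0663) and eIF3c at 0.18 ± 0.0578 (adjusted p = 0.0624). For eIF3a, eIF3b and eIF3c every HFD signal exceeded every RD signal. The other subunit genes with all HFD signals above all RD signals were eIF3d1, eIF3f1, eIF3h and eIF3l, at 0.11, 0.13, 0.10 and 0.12. In all, 7 of 15 eIF3 genes lay fully above RD, against 23.2% of all tested probe sets, and 1 lay fully below, against 18.7%.

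The gene below was eIF3j, a loosely held subunit, at -0.13 ± 0.0489 (adjusted p = 0.108). The remaining subunit genes eIF3e, eIF3g1, eIF3i, eIF3k and eIF3m were at 0.07, 0.05, 0.03, 0.06 and 0.14 with overlapping diets. The median of the eIF3 genes was 0.10, and 12 of 15 estimates were above 0. With median centring the median was -0.10 and 13 of the 15 estimates were below 0. The second copies eIF3f2 and eIF3g2 were dim, with signals of 31.5 to 44.2 and 65.7 to 81.0 over the 6 arrays, and did not pass. The second copy eIF3d2 had signals of 10.5 to 18.4 and was under the filter on dim probe sets, a mean signal of about 27.9.

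**Figure D2:**
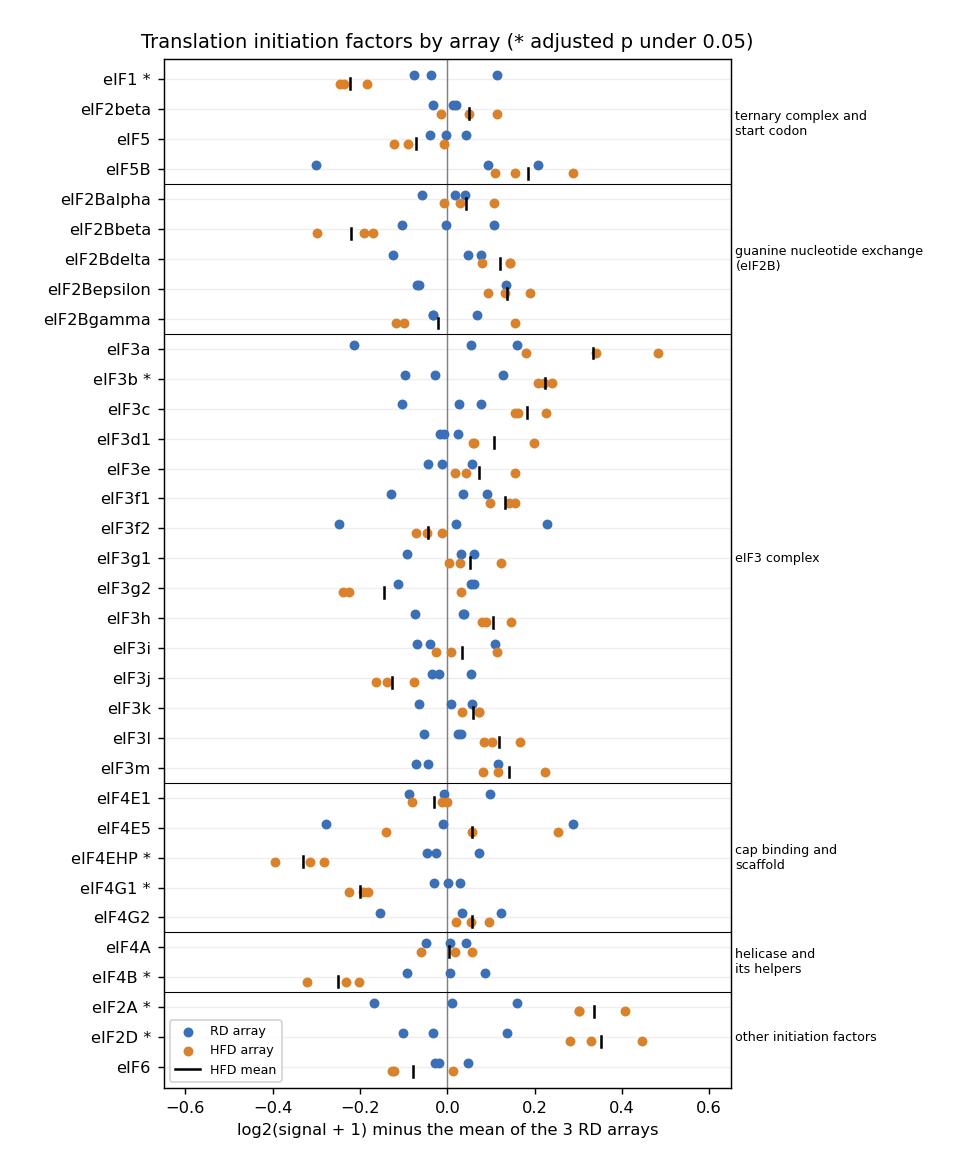
Log2(signal + 1) of each tested initiation factor gene on each array, minus the mean of the 3 RD arrays (horizontal axis), with genes grouped by role. Blue points are RD arrays, orange points HFD arrays and black ticks HFD means, and a star marks an adjusted p under 0.05: eIF2A, eIF2D and eIF3b lie to the right of 0, and eIF1, eIF4B, eIF4G1 and, on its brighter probe set, eIF4EHP to the left.

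Of 5 cap-binding and scaffold genes tested, 2 were called lower and none higher on their brightest probe sets. Over all tested probe sets 6.63% were called lower and 12.9% higher. Of the 2, eIF4EHP was higher on its other probe set. The scaffold gene eIF4G1, whose product joins the cap to the poly(A)-binding protein and to eIF3, had signals of 3947.5, 4116.2 and 4041.7 in RD and 3450.3, 3559.3 and 3529.5 in HFD. It fell by 0.20 ± 0.0412 (adjusted p = 0.0142), with a gap between the diets wider than the range within either. The main cap-binding gene eIF4E1 did not pass: its signal was 4595, 5227 and 4860 in RD and 4620, 4887 and 4844 in HFD, with a 95% interval of the log2 fold change from -0.16 to 0.10.

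The gene eIF4EHP codes for a cap-binding protein that, unlike eIF4E1, represses mRNAs; in the fly embryo it silences caudal and hunchback. On its brighter probe set the signal was 901, 964 and 888 in RD and 698, 754 and 737 in HFD, and it fell by 0.33 ± 0.0612 (adjusted p = 0.00969). Its other probe set went the other way, with 590, 455 and 466 in RD and 673, 615 and 683 in HFD, a rise of 0.39 ± 0.107 (adjusted p = 0.0382). The ratio of the second probe set to the first was 0.66, 0.47 and 0.53 on the RD arrays and 0.96, 0.82 and 0.93 on the HFD arrays. On the log2 scale the 2 probe sets thus moved apart by 0.72 (exact permutation p = 0.1, two-sided, the smallest that 3 against 3 arrays allow; 0.1 after adjustment over the 5 pairs of probe sets compared within genes). With the mean of both in place of the brighter one, eIF4EHP was at 0.03 (adjusted p = 0.772), so no direction for the gene as a whole can be given. RefSeq lists 4 transcripts of eIF4EHP, and which of them each probe set binds was not tested. The ratio of the 2 probe sets was lowest on RD array 2 and highest on HFD array 1. The mean 3'/5' ratio of the control transcripts, given below, was also lowest and highest on these arrays. The part of RNA quality in the split was not tested.

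The signal of eIF4A, the helicase that unwinds the leader of the mRNA, was 10944, 10263 and 10673 in RD and 10180, 11045 and 10752 in HFD. The estimate was 0.00 with a 95% interval from -0.10 to 0.11; with median centring it was -0.20 (adjusted p = 0.0292), which is the shift of all probe sets. The gene eIF4B, whose product stimulates eIF4A, had 2336, 2646 and 2500 in RD and 1994, 2165 and 2121 in HFD on its brightest probe set and fell by 0.25 ± 0.0606 (adjusted p = 0.0248).

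A second eIF4B probe set also fell, from 1348 ± 193 in RD to 955 ± 76 in HFD (mean ± SD, n = 3 each), by 0.49 ± 0.109 (adjusted p = 0.0189). Another, at 1115 ± 77.9 and 1175 ± 43.5, did not pass and had an estimate of 0.08 (adjusted p = 0.425). The last was dim, with 7.32 to 13.6 over the arrays. The fall of eIF4B was thus seen on 2 of its 3 tested probe sets. The gaps between the 3 differed by diet without overlap (exact permutation p = 0.1 for each pair, the smallest possible). The 2 tested probe sets of TrpRS, whose gap moved by only 0.09, gave the same exact permutation p of 0.1. This p therefore cannot tell a large gap from a small one. RefSeq lists 4 transcripts of eIF4B as well. The part of transcripts or of RNA quality in the gaps of eIF4B was not tested.

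**Figure D3:**
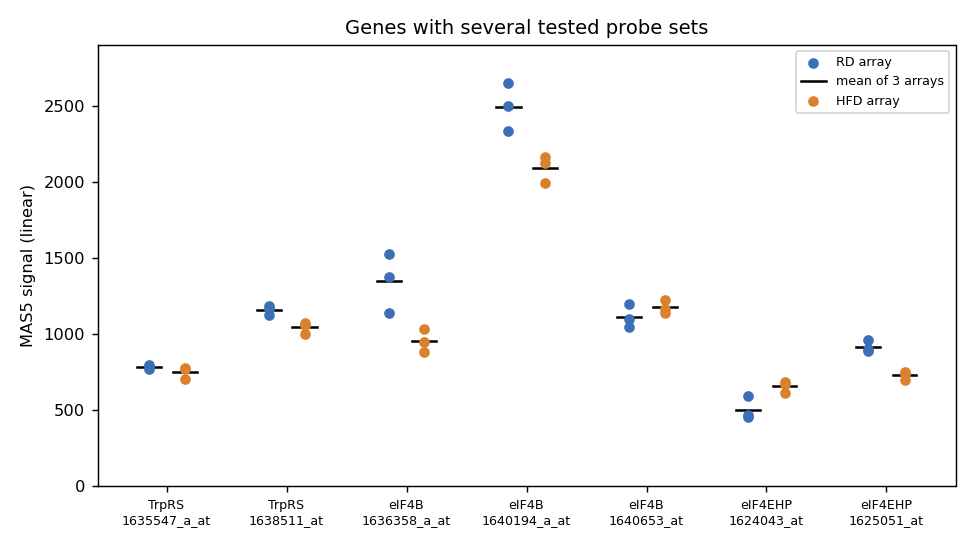
MAS5 signal on a linear scale (vertical axis) for each tested probe set of the 3 genes that have several, with RD arrays in blue, HFD arrays in orange and the mean of 3 arrays as a black line. The 2 probe sets of eIF4EHP move in opposite directions, and 1 of the 3 of eIF4B shows no fall; levels are not comparable between probe sets.

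The remaining cap-binding genes are paralogs. The scaffold paralog eIF4G2, known in flies for its role in spermatogenesis, had signals of 1419 to 1718 in RD and 1602 to 1687 in HFD (0.06, adjusted p = 0.610). The cap-binding paralog eIF4E5 had signals of 34.2 to 51.1 and did not pass. The paralogs eIF4E3, eIF4E4, eIF4E6 and eIF4E7 and the helper eIF4H2 were under the filter, with no signal above 32.7 on any array. Together with eIF3d2, 6 of the 40 initiation factors were not tested for this reason. No probe set was named for eIF4H1 alone.

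Among the cytosolic synthetases 1 of 16 rose and none fell (limma), against 12.9% and 6.63% of all tested probe sets. An unadjusted p under 0.05 was found for 5 (4 above RD, 1 below), against 35.5% of all tested probe sets. AsnRS, which charges the asparagine tRNA, had signals of 1280, 1105 and 1076 in RD and 1347, 1473 and 1465 in HFD. The HFD signals all lay above those of RD, with RD array 1 nearest, and the rise was 0.31 ± 0.0772 (adjusted p = 0.0274). Asparagine synthetase (AsnS), which makes that amino acid, was at 0.06 (adjusted p = 0.585).

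The next in order of size was HisRS, at 0.27 ± 0.134, whose RD signals of 886, 600 and 743 overlapped the HFD signals of 863, 830 and 971. The estimates of TyrRS and ThrRS were both 0.16 (adjusted p = 0.0609 and 0.106) and those of LysRS and GlnRS 0.14 and 0.13 (0.128 and 0.143), each with the HFD arrays above the RD arrays. On the other side TrpRS was at -0.15 ± 0.0542 (adjusted p = 0.0892), with all HFD arrays below. Its second tested probe set was at -0.06 with overlapping diets.

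The other cytosolic enzymes overlapped between diets. The bifunctional glutamate and proline enzyme GluProRS had signals of 1670, 1624 and 1659 in RD and 1579.8, 1674.5 and 1734.7 in HFD, and an interval from -0.11 to 0.13. It was at -0.20 with median centring (adjusted p = 0.0493). IleRS, LeuRS, ValRS and AlaRS were at 0.11, 0.10, 0.10 and 0.08, and GlyRS, ArgRS, SerRS and CysRS at -0.04, -0.07, -0.07 and -0.08. The median of the 16 was 0.10, and 11 estimates were above 0 (with median centring -0.11, and 2 above 0).

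The synthetases were also grouped by structure, and differences between these groups were not tested. Class I enzymes bind ATP through a Rossmann fold and class II enzymes through an antiparallel sheet. The 8 cytosolic class I genes had a median of 0.098 and no call, and the 7 of class II a median of 0.137 and 1 call, AsnRS. The bifunctional GluProRS was counted in neither class. For comparison, 19.5% of all tested probe sets were called, and their median was 0.008. With median centring the median of all 16 cytosolic enzymes was -0.11. Several cytosolic synthetases sit in a multi-enzyme complex in animal cells. The 6 such enzymes measured had a median of 0.106 with no call, and the 10 others a median of 0.089. The scaffold genes of that complex, AIMP1, AIMP2 and AIMP3, were at 0.01, -0.03 and -0.06. The genes of the 2 subunits of the phenylalanine enzyme, alpha-PheRS and beta-PheRS, which the symbol rule does not take in, were at 0.02 and 0.03.

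No mitochondrial synthetase passed (limma), against 19.5% of all tested probe sets. An unadjusted p under 0.05 was found for 2 of 14, both below RD, against 35.5% of all tested probe sets. The estimates of the 14 ran from -0.36 to 0.01 with a median of -0.118, and 13 of 14 were below 0. With median centring their median was -0.33 and 14 of 14 were below 0, beside 14 of 16 cytosolic estimates. GluRS-m had signals of 114, 146 and 135 in RD and 82.0, 105 and 123 in HFD (-0.36 ± 0.169, adjusted p = 0.172), and the diets overlapped. ValRS-m had 251, 299 and 273 in RD and 188, 239 and 244 in HFD without overlap (-0.30 ± 0.124, adjusted p = 0.126). TrpRS-m, with 612, 685 and 629 against 516, 572 and 583, was at -0.21 (adjusted p = 0.0931). AsnRS-m and SerRS-m also had all HFD signals below RD, at -0.17 and -0.14, which makes 4 of 14 against 18.7% of all tested probe sets. The other 9 members, ArgRS-m, AspRS-m, CysRS-m, IleRS-m, LeuRS-m, MetRS-m, PheRS-m, ProRS-m and TyrRS-m, were between -0.16 and 0.01.

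For 9 amino acids both enzymes were measured. The mitochondrial estimate was below the cytosolic one for asparagine by 0.49, for valine by 0.40 and for isoleucine by 0.27. For valine the difference on single RD arrays, relative to their mean, ran from -0.33 to 0.35. It overlapped that on the HFD arrays, at -0.52 to -0.30. For asparagine and isoleucine the HFD arrays lay below the RD arrays. In all 7 of 9 pairs differed in that direction by more than 0.05, with a median difference of -0.15 on the log2 scale. Of these pairs AsnRS was the 1 with a called member. No probe set was named for AlaRS-m, AspRS or MetRS alone.

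**Figure D4:**
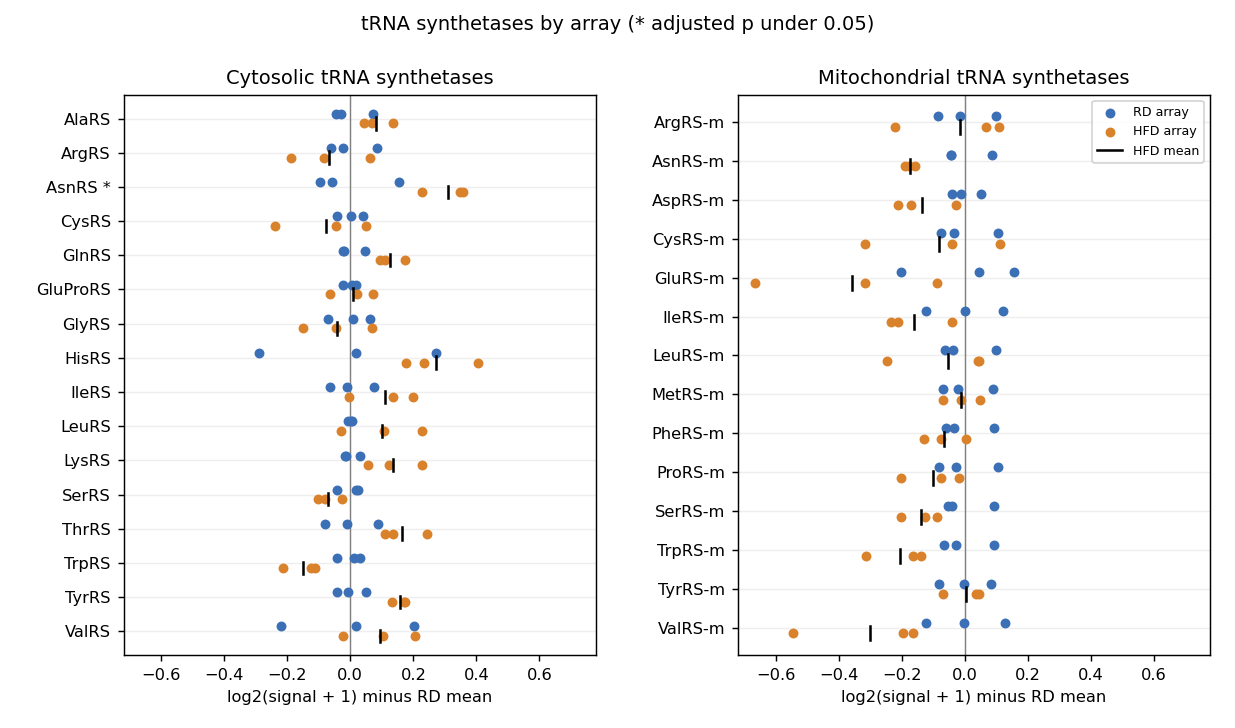
Log2(signal + 1) of each synthetase gene on each array minus the mean of the 3 RD arrays (horizontal axis), for cytosolic enzymes on the left and mitochondrial enzymes on the right. Blue points are RD arrays, orange points HFD arrays and black ticks HFD means; AsnRS alone has a star (adjusted p under 0.05), and among the mitochondrial enzymes the rightmost blue point is RD array 2 and the leftmost orange point HFD array 1 in all 14.

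The mitochondrial synthetases varied together between arrays of the same diet. RD array 2 was the highest RD array for 14 of 14, against 42.6% of all tested probe sets, and HFD array 1 the lowest HFD array for 14 of 14, against 52.7%. Their mean log2 level, relative to the RD mean, was -0.065, 0.101 and -0.036 on RD arrays 1 to 3 and -0.258, -0.093 and -0.034 on HFD arrays 1 to 3. HFD array 3 thus lay within the range of RD. Of the 16 cytosolic enzymes 5 were highest on RD array 2 and 5 lowest on it. Without RD array 2 the median of the mitochondrial enzymes was -0.07, and without HFD array 1 it was -0.07 as well, with 9 of 14 estimates then below 0.

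The quality of the RNA was read from the control transcripts. The mean log2 ratio of 3' to 5' signal over the actin, GAPDH and eIF-4a controls, which is larger where RNA or its labelled copy is shorter, was 2.52, 1.93 and 2.17 on the RD arrays and 2.66, 2.49 and 2.63 on the HFD arrays. RD array 2 had the lowest ratio and RD array 1 the highest of RD, and HFD arrays 1 and 3 were close to each other. The mean level of the mitochondrial synthetases, relative to RD, was -0.258 on HFD array 1 and -0.034 on HFD array 3. Among the RD arrays, eIF2A, eIF2D and eIF3b were highest on array 1 and lowest on array 2. For eIF1, eIF4B and eIF4G1 this order was turned round. RD array 1 was thus the RD array nearest to HFD for these genes. AsnRS was lowest on RD array 3, as was eIF4EHP on its brighter probe set. The diets overlapped in the mean ratio (exact permutation p = 0.2, two-sided, with 0.1 the smallest possible). For actin alone they did not: its ratio was 7.85, 4.9 and 5.69 in RD and 9.29, 8.35 and 8.93 in HFD (exact permutation p = 0.1). The mean ratio averaged 2.21 in RD and 2.59 in HFD, so a fit that includes it cannot tell RNA quality and diet apart. The part of RNA quality in the differences between diets was not tested otherwise. One of these controls is itself an initiation factor transcript. The signal of its 3' probe set averaged 9121 ± 325 for RD against 8887 ± 267 for HFD, and its middle probe set 5326 ± 310 against 5204 ± 378. At its 5' end the signal was 1222 ± 274 and 869 ± 95.8 (mean ± SD, n = 3 each, as for the other probe sets; exact permutation p = 0.2).

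With that ratio in the model no member of either family passed (limma); 3 initiation factors and no synthetase then had an unadjusted p under 0.05. Over all tested probe sets 266 passed in that fit, or 2.36%, so that 0 of 64 members says little about the members. The smallest adjusted p was 0.152, for eIF4EHP, at -0.26. The median of the mitochondrial enzymes went from -0.118 to -0.02 and that of the cytosolic enzymes from 0.10 to 0.00, while the eIF3 genes went from 0.10 to 0.09. AsnRS was at 0.19 (adjusted p = 0.382), eIF2D at 0.19 (0.403) and eIF4G1 at -0.16 (0.227).

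**Figure D5:**
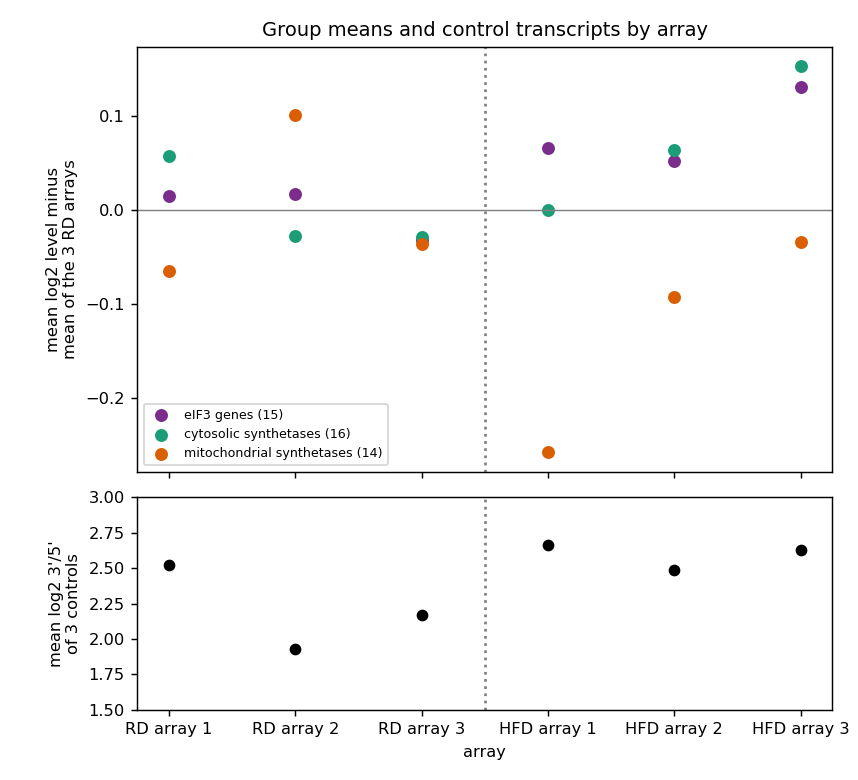
Mean log2 level of the 15 tested eIF3 genes, the 16 cytosolic and the 14 mitochondrial synthetases on each array, relative to the mean of the RD arrays (upper panel), and the mean log2 3'/5' ratio of 3 control transcripts on the same arrays (lower panel). The mitochondrial enzymes are highest on RD array 2, where the ratio is 1.93, and lowest on HFD array 1, where it is 2.66; on HFD array 3 the ratio is 2.63 and their level, at -0.034, is within the RD range.

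With 1 array left out, calls over the whole table changed too: 16.6%, 8.7% and 6.78% of all tested probe sets were called higher without RD array 1, 2 and 3, and 8.54%, 8.1% and 9.56% without HFD array 1, 2 and 3. The initiation factors called higher numbered 5 without RD array 1, 1 without RD array 2 and 0 without RD array 3 or HFD array 1, 2 or 3. Those called lower numbered 5, 2 and 1 without RD array 1, 2 and 3 and 2, 1 and 2 without HFD array 1, 2 and 3, beside 7.46%, 3.18%, 2.18%, 3.09%, 3.0% and 5.25% of all tested probe sets. AsnRS kept its call without RD array 1 or HFD array 1 and lost it without each of the other 4, with estimates between 0.26 and 0.39. eIF4EHP, on its brighter probe set, kept its call in all 6 of these fits, and eIF4G1 lost it without RD array 3 and HFD array 2, with estimates between -0.22 and -0.19. The estimates of eIF1 stayed between -0.26 and -0.17, those of eIF4B between -0.30 and -0.21, and those of eIF2A, eIF2D and eIF3b between 0.25 and 0.42, 0.30 and 0.42, and 0.18 and 0.29.

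Other steps of translation were read from lists of known genes, not all of which had a probe set named for them alone. Of all tested probe sets 12.9% were called higher and 6.63% lower, and 35.5% had an unadjusted p under 0.05. Of 8 elongation genes listed 5 were measured, of which eEF1alpha2 rose and none fell. This second form of the factor that brings charged tRNA to the ribosome is, in mammals, the form of neurons and muscle. Its signal was 919, 697 and 763 in RD and 1699, 1721 and 1733 in HFD, which is 2.18-fold (1.12 ± 0.0953, adjusted p = 0.00160), and it kept its call with the control ratio in the model (0.89, adjusted p = 0.00861). The rise was larger than that of any initiation factor or synthetase measured. Of the marker genes of neurons 9 of the 9 measured (11 listed) rose, with summed signals of 2110 to 2817 in RD and 4206 to 4611 in HFD. Of those of muscle 7 of the 9 measured (12 listed) rose, with sums of 4378 to 5954 and 9581 to 11024. Of those of photoreceptors 5 of the 5 measured (8 listed) rose. The part of these cell types in the rise of eEF1alpha2 was not tested. In whole flies fewer cells of a type and less RNA per cell cannot be told apart. The other elongation genes eEF1gamma, eEF1delta, eEF5 and eEFSec did not pass, at 0.14, -0.16, -0.08 and -0.30.

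Of 4 termination and recycling genes the release factor eRF3 fell by 0.16 ± 0.0448 (adjusted p = 0.0457), and eRF1, pelo and HBS1 did not pass. Among 6 measured of 10 listed regulators of the cap and the poly(A) tail, Lk6 rose, the kinase that phosphorylates eIF4E in flies. For both lists the shares over all tested probe sets were 12.9% higher and 6.63% lower. The signal of Lk6 was 3527, 3197 and 3227 in RD and 4800, 4483 and 4948 in HFD, a rise of 0.52 ± 0.0580 (limma, adjusted p = 0.00207). The estimate was 0.40 (adjusted p = 0.0282) when the control ratio was in the model. The poly(A)-binding gene pAbp was at -0.01, and 4E-T, Paip2, me31B and NAT1 did not pass.

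The integrated stress response had no call among 4 genes (limma), of which 2 had an unadjusted p under 0.05. For this list and those that follow, the shares over all tested probe sets were 19.5% called and 35.5% with an unadjusted p under 0.05. The amino acid sensor kinase Gcn2 was at -0.22 (adjusted p = 0.0781), and crc, the fly ATF4, had signals of 3547, 3313 and 3250 in RD and 3678, 3744 and 3930 in HFD (0.17, adjusted p = 0.0553). Of 4 amino acid and folate genes linked to ATF4, Nmdmc rose by 0.30 ± 0.0886 (adjusted p = 0.0497), and AsnS, aay and Shmt did not pass. Of 9 TOR branch genes listed 4 were tested, and none was called or had an unadjusted p under 0.05. Among these gig, the fly TSC2, had the smallest p (0.19, adjusted p = 0.166, limma). Of 8 mitochondrial translation factors none was called and 1 had an unadjusted p under 0.05. That was mIF3, with signals of 124, 146 and 136 in RD and 94, 105 and 113 in HFD (-0.38, adjusted p = 0.0592). Over these 8 genes the median was -0.085.

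The calls for eRF3 and Nmdmc were lost with the control ratio in the model (adjusted p = 0.324 and 0.383), and also with no filter, without the trend and with the replicate block. With single arrays left out, eRF3 kept its call only without HFD array 3 and Nmdmc only without RD array 1, while the estimates stayed between -0.18 and -0.13 and between 0.23 and 0.35. Lk6 and eEF1alpha2 kept theirs in every alternative.

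Markers of the ovary are of interest because germ cells hold much of a female's translation machinery. Of 14 germ line genes measured (15 listed) 3 rose and 3 fell, with a median of -0.021. Their summed signals were 34896 to 35555 in RD and 31991 to 33779 in HFD. Of 13 eggshell and yolk genes measured (16 listed) 10 fell and none rose, with sums of 112736 to 116665 and 82485 to 88573. Of 4 fat body genes tested (6 listed) 3 fell and none rose. Over all tested probe sets 12.9% were called higher and 6.63% lower. The part of the ovary and the fat body in the falls of eIF1, eIF4B and eIF4G1 was not tested. Of 12 genes of male reproduction, 8 were under the filter and the 4 others did not pass, with signals summed over those 4 of 240 to 272 in HFD and 248 to 300 in RD.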

How the data were processed

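The authors deposited MAS5 output, a linear intensity for each probe set, per the submitters' processing notes; the program version and any scaling are not given in the sources used here. Of 18952 probe sets, 183 controls were left out, 1 was added before log2, and the 11261 with a mean above the 40th percentile (log2 of 4.86) were tested. HFD was tested against RD by lmFit and eBayes with a trend (limma 3.58.1, R 4.3.3), two-sided, and p-values were adjusted over all of these by Benjamini and Hochberg; errors are standard errors or SDs as named. Signals of different probe sets are not comparable, and 6 arrays limit precision. Gene symbols came from the array annotation, and all 70 matched the Release 6 table by gene ID with the same symbol; 7 further genes in that table fit the symbol rule and were not analysed here. The fit was tested on simulated arrays of 11261 probe sets, of which 200 were shifted. It found 22.7% of those shifted by 0.25, 79.4% at 0.5 and 100% at 1 (log2), with 6.9% of calls false. The simulated noise was normal, independent between probe sets, and had an SD set by signal alone. Far fewer probe sets were shifted than the 2196 called in the data, so these rates need not hold for the real arrays. The members, gene lists and alternatives were chosen with earlier results of these data known. The rule for names took all called members (up to 14 per family), the 6 brightest, the largest change not called, and up to 3 called genes or the smallest p per pathway list; the other members are named to account for all 70. Alternatives were quantile normalization, median centring, 16 or 50 added, no filter or the 60th percentile, eBayes without trend or robust, weights per array, a replicate block, the control 3'/5' ratio as a covariate, the mean over probe sets, and leaving out each array. A fit without the first array of each diet was added later. Figures used Python 3.11.15 and matplotlib 3.10.9.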

Additional observations from a re-analysis of the deposited data

How the results depend on the processing

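Counts of initiation factors higher and lower in HFD were 3 and 4. They were 5 and 5 with quantile normalization, 0 and 10 with median centring, 1 and 1 with eBayes without a trend, and 0 and 0 once the control 3'/5' ratio entered the model. Array weights gave 16 and 9. Of all tested probe sets 12.9% were called higher and 6.63% lower as reported, 11.1% and 10.2% with quantile normalization, 8.63% and 35.7% with median centring, 12.0% and 4.11% without the trend, 1.89% and 0.471% with the control ratio, 14.5% and 8.25% with the replicate block, and 31.4% and 23.1% when arrays were weighted. Synthetases higher and lower numbered 1 and 0, and 3 and 1 (1 mitochondrial) with quantile normalization, 0 and 14 (6 cytosolic, 8 mitochondrial) with median centring, 9 and 8 (2 cytosolic, 6 mitochondrial) under array weights, and 0 and 0 without the trend or with the control ratio. Median centring moved the medians from 0.054 to -0.154 for the initiation factors and from -0.048 to -0.257 for the synthetases. Leaving out 1 array gave 0 to 5 initiation factors higher, 1 to 5 lower, and 0 to 2 synthetases higher, with none lower. The counts were 3, 4, 1 and 0 without RD array 1 and HFD array 1 together, an alternative chosen after seeing the data. A reversal was counted where the sign changed and the gene was called as reported or with the alternative. There were 3 cases: eIF4EHP at 0.03 with the mean over its probe sets, and eIF4A and GluProRS, both at -0.20 with median centring. Estimates called in neither fit changed sign as well. With median centring eIF3c went from 0.18 to -0.03 and IleRS from 0.11 to -0.10. With the control ratio in the model HisRS went from 0.27 to -0.08. Of 152 comparisons of the 8 called genes with an alternative, 102 kept call and direction and 49 lost the call. The cause of these changes was not tested, apart from the shift that median centring makes by its construction. With the replicate block, initiation factors higher and lower were 5 and 4 and synthetases 1 and 0. Same-numbered samples deviated from their diet means with correlations of 0.072, 0.102 and 0.027 across probe sets, so the numbers were not taken to pair the samples. Dim genes had the widest intervals, up to 0.43 on the log2 scale to either side.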

Other observations

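Of all tested probe sets, RD array 2 was the lowest RD array for 31.0% and the highest for 42.6%. Among the initiation factors it was the lowest for 11 and the highest for 19 of 34.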
